A study of Mus musculus with 8 samples.

Results

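The cells described here, taken as monocytes of allograft tissue, carried transcripts of the chitinase-like protein Chil3. Along with Chil3 they carried Ly6c2 or another gene of the classical monocyte. They were found with a gate on unique molecular identifiers (UMIs), each standing for 1 captured mRNA molecule. A cell passed with at least 500 UMIs in all and at most 10% of them mitochondrial. It was a member when it held at least 5 UMIs of Chil3, at least 2 of Ly6c2, F13a1, Ccr2 and Csf1r together, fewer than 5 of C1qa, C1qb and C1qc, and fewer than 2 of Arg1. It also had to hold fewer than 3 UMIs of the neutrophil genes Csf3r, Cxcr2, Mmp9 and Il1r2, fewer than 3 of the precursor genes Elane, Prtn3, Mpo, Ctsg and Ms4a3, and at most 1 of Cd3d, Cd3e, Cd3g and Trac. Of 31804 passing cells in 5 tissue libraries, 827 were members, or 2.60% (exact 95% binomial interval 2.43 to 2.78). All 8 libraries held 47541 passing cells among 80000 barcodes. Members were thus chosen by the measured UMIs of these 22 genes, so their levels are given as a description with no test.

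Hearts, livers and kidneys of BALB/c mice were transplanted into C57BL/6J mice, donors and recipients both 8 weeks old, and were collected on day 7 without immunosuppression. Single cells were captured by Microwell-seq, in which beads in a microwell array take up the 3' ends of polyadenylated RNA. The tissue libraries were liver and kidney PC (parenchymal cells, released with collagenase II) and heart, liver and kidney TIL (infiltrating lymphocytes, taken from a density gradient), and peripheral blood mononuclear cells (PBMC) of recipients of each organ made up the other 3. The labels give every library the strain BALB/c and male sex, which for blood and infiltrate does not say whether a cell came from donor or recipient, and the methods speak of 2 recipients per organ without stating whether they were pooled. With 1 library per condition no single condition could be tested against another, and intervals on single libraries cover counting error only. Where tissue was set against blood, libraries of different organs stood in as replicates.

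Classical monocytes are made in the bone marrow, leave it with the help of the chemokine receptor Ccr2, circulate as Ly6C-high cells and enter inflamed tissue, where they can become macrophages or dendritic cells. Chil3 encodes Ym1, a secreted chitinase-like protein without chitinase activity that marks a subset of Ly6C-high monocytes and, in other settings, alternatively activated macrophages. Ly6c2 encodes the Ly6C surface antigen itself, F13a1 the A subunit of coagulation factor XIII, Mmp8 a collagenase stored in granules and Hp haptoglobin, which binds free haemoglobin. Mmp8 and Hp are named as markers of these cells but were not part of the gate.

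In GRCm38, the Chil3 gene lies on the minus strand of chromosome 3 from 106147554 to 106167564, Ly6c2 on the minus strand of chromosome 15 from 75108158 to 75111970 and F13a1 on the minus strand of chromosome 13 from 36867178 to 37050244. Mmp8 lies on the plus strand of chromosome 9 from 7558456 to 7568485 and Hp on the minus strand of chromosome 8 from 109575128 to 109579172. The 250 bases before the RefSeq start of the first 2 genes and of Mmp8 (build GRCm38.p6) are printed because these genes give the cells their name and their granule marker. For Ly6c2 the more upstream of its annotated starts was taken. The windows are chr3:106167565-106167814 (minus strand), chr15:75111972-75112221 (minus strand) and chr9:7558179-7558428 (plus strand), and no annotated exon overlaps them. Capitals mark AGGAAGT, a motif around the GGAA core that ETS factors such as PU.1 recognise, read on either strand (ACTTCCT on the reverse).
Chil3: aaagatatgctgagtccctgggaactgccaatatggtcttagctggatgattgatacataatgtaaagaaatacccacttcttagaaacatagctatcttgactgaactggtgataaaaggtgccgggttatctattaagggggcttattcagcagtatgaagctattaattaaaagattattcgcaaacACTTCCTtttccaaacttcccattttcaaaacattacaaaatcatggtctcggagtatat
Ly6c2: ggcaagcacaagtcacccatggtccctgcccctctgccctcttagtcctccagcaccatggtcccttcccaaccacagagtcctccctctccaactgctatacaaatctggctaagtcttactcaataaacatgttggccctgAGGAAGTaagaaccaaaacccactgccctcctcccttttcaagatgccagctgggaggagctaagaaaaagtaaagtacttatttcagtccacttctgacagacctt
Mmp8: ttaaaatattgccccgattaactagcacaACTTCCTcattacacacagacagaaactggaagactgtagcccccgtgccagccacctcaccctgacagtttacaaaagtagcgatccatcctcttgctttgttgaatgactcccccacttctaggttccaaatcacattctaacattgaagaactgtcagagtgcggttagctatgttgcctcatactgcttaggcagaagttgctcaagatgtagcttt
The motif began 60 bases before the start of Chil3 on the reverse strand, 107 bases before that of Ly6c2 on the forward strand and 221 bases before that of Mmp8 on the reverse strand. Of 32851 windows of this length before RefSeq starts, 2525 or 7.69% held it on either strand, so a match is a description and not a binding site. The window before the most upstream start of F13a1 held none, and that of a second start, which overlaps an exon of the gene, held it 36 bases before the start. The window of the second start of Ly6c2 held 2 matches.

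The organ markers of the infiltrate libraries ran against their labels. A hepatocyte list of 7 genes summed to 461 CPM (counts scaled to a total of 1000000 over the cells summed) over the passing cells of labelled heart TIL and 263 CPM in liver PC, against 2.18 CPM in labelled liver TIL and at most 3.38 CPM elsewhere. A cardiomyocyte list of 6 genes summed to 119 CPM in labelled liver TIL, 23.1 CPM in labelled heart TIL and 25.7 CPM in liver PC. Both are therefore named with the word labelled below, and the counts of all genes called in a comparison are also given without each of them. Total depth ran from 3418722 to 19171264 UMIs per library. Any pair of libraries had 123 to 617 barcodes in common, and 56 tissue members carried a barcode that also passed in another library, where none of them (0) was a member.

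The members were unevenly spread over the grafts. Liver PC held 488 members among 10000 passing cells (4.88%, exact binomial interval 4.47 to 5.32), the library labelled heart TIL 283 among 9668 (2.93%, 2.60 to 3.28) and the library labelled liver TIL 54 among 9337 (0.578%, 0.435 to 0.754). Kidney tissue held almost none. Kidney TIL had 2 members among 2004 cells (0.0998%, 0.0121 to 0.360), and in kidney PC there were 0 of 795, which allows a share of up to 0.377% at 3 counts of the total (exact upper bound 0.463%). The intervals of liver PC, labelled heart TIL and labelled liver TIL did not overlap. In blood the same gate took 382 of 7772 cells of heart recipients (4.92%, 4.45 to 5.42), 1066 of 6822 of liver recipients (15.6%, 14.8 to 16.5) and 21 of 1143 of kidney recipients (1.84%, 1.14 to 2.79). In these blood libraries 970, 276 and 0 cells failed only the limit on neutrophil genes. A UMI of those 4 genes was held by 80.1%, 58.7% and 38.1% of blood members. In labelled heart TIL, liver PC and labelled liver TIL it was held by 26.5%, 36.7% and 35.2% of members. After each cell was thinned to 500 UMIs, which left no passing cell out, 459 cells (4.59%) met the gate in liver PC, 216 (2.23%) in labelled heart TIL and 22 (0.236%) in labelled liver TIL, in the same order. With fewer than 2 C1q UMIs the shares of these libraries were 3.11%, 1.56% and 0.353%, and with at least 10 Chil3 UMIs 3.5%, 1.68% and 0.182%. The share of liver PBMC was 9.01% after thinning and 37.3% at a floor of 1000 UMIs. The density gradient, the digestion and the depth of a library, 581 median UMIs per passing cell in kidney PC against 1501.5 in liver PC, differed with these shares, and their part was not tested.

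**Figure D1:**
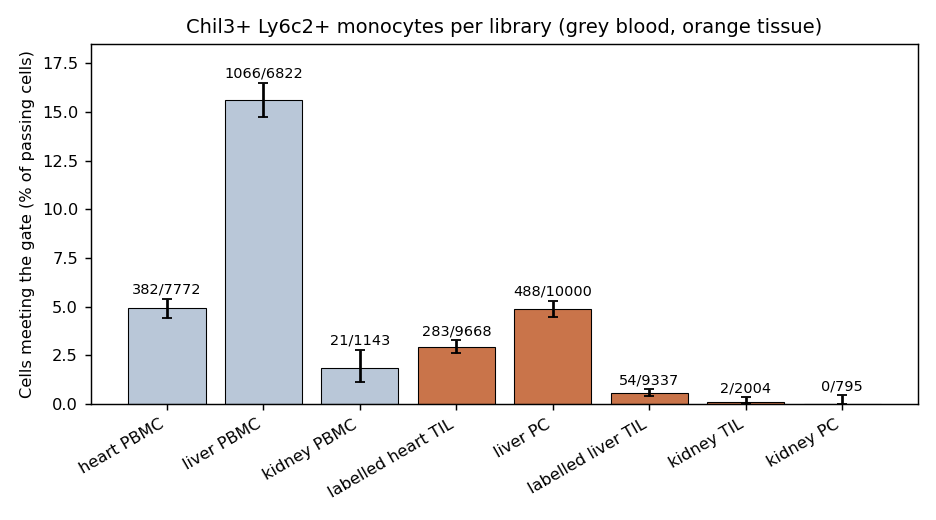
Share of passing cells that met the gate in each of the 8 libraries, in percent, with exact 95% binomial intervals as error bars and the number of members over the number of passing cells above each bar (blood grey, tissue orange). Liver PBMC stood highest at 15.6% (9.01% after thinning), liver PC was the highest tissue library at 4.88%, and both kidney tissue libraries lay at or near 0.

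As a description of the gate genes, over all barcodes and thus all cell types, Ly6c2 stood at 2933 to 3032 CPM in the kidney libraries, above each heart and liver library, while Chil3 stood at 183 to 257 CPM in them against 667 CPM in labelled liver TIL and 2778 to 5066 CPM in the other heart and liver libraries. F13a1 stood at 3.30 to 12.2 CPM in the kidney libraries and at 36.3 to 168 CPM in the others. Ly6c2 alone could meet the limit on monocyte genes, so not every cell that met it is shown to be a monocyte. Of cells that met every criterion but the Chil3 limit, 141 of 156 in kidney PC and 297 of 331 in kidney TIL held 0 UMIs of Chil3. In labelled liver TIL these were 539 of 878, against 102 of 403 in liver PC and 90 of 439 in labelled heart TIL. The limit of 5 Chil3 UMIs thus cut through a range: in liver PC 55 cells that met the rest held 4 UMIs and 40 held 5. Lyz2, a lysozyme gene of myeloid cells, stood at 12330 CPM in the former and 11691 CPM in the latter, and Cd74, the invariant chain of MHC class II, at 7914 and 7965 CPM. In labelled heart TIL, with 51 and 42 such cells, Lyz2 stood at 16609 and 20168 CPM and Cd74 at 10368 and 11311 CPM. In labelled liver TIL, with 18 and 17, Lyz2 stood at 18524 and 20364 CPM and Cd74 at 15026 and 9073 CPM. Lyz2 in labelled heart TIL and Cd74 in labelled liver TIL differed beyond their counting intervals. So did, of the other genes compared, Saa3 in liver PC (4974 CPM at 4 UMIs and 6181 CPM at 5) and S100a8, Apoe and Ccl5 in labelled heart TIL, so cells on the 2 sides of the limit were not alike in every gene.

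The members' own levels of the gate genes were as follows. Chil3 had a median of 11 UMIs per member in labelled heart TIL, 17 in liver PC and 8 in labelled liver TIL, and reached 49, 125 and 19 UMIs. Summed over members it stood at 15616, 14781 and 8161 CPM, and the members held 13.4%, 20.9% and 8.09% of each library's Chil3 UMIs. Ly6c2 stood at 3061, 4538 and 2301 CPM, F13a1 at 223, 221 and 478 CPM and the chemokine receptor Ccr2 at 378, 418 and 885 CPM, so the library lowest in Chil3 was the highest in F13a1 and Ccr2. In blood members Chil3 stood at 16218 CPM for heart, 12078 CPM for liver and 9248 CPM for kidney recipients. Chil3 and C1q UMIs were also found in cells that should lack these genes, a background often seen when RNA is free in the suspension. Cells with 3 or more UMIs of Cd3d, Cd3e, Cd3g and Trac, and below the limits for monocyte, C1q, neutrophil and Arg1 UMIs, are called the T cell gate below. They held 5 or more Chil3 UMIs in 6.32% of 2137 cells in labelled heart TIL, 5.40% of 1278 in liver PC and 0.170% of 1174 in labelled liver TIL. C1qa, a subunit of the complement component C1q made by macrophages, stood at 276, 211 and 407 CPM in members and at 363, 202 and 478 CPM in the T cell gate, and the same limit on C1q UMIs set both. Median depth in the T cell gate was 783, 1281.5 and 769 UMIs, close to the 774, 1351.5 and 892.5 of members. Reads of near-identical copies such as Ly6c1 and Ly6c2, Hspa1a and Hspa1b or Bcl2a1a and Bcl2a1d were discarded by the authors when they aligned to both, and levels of such genes are uncertain.

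Mmp8 and Hp, which the gate did not use, stood above the T cell gate. They were named as markers with earlier results of these data known, and the T cell gate was itself limited in monocyte and neutrophil UMIs. The difference is thus a description and no separate support for the identity of the cells. With every cell thinned to 500 UMIs, 17.3% of members in labelled heart TIL had a Mmp8 UMI (exact interval 13.1 to 22.2), 16.4% (13.2 to 19.98) in liver PC and 16.7% (7.92 to 29.3) in labelled liver TIL, against 2.15%, 3.13% and 1.36% of the T cell gate. Unthinned, the members' shares for Mmp8 were 23.3%, 29.9% and 33.3%. Hp had a UMI in 50.5% (44.5 to 56.5), 57.6% (53.1 to 62.0) and 24.1% (13.5 to 37.6) of thinned members, and in 21.8%, 9.86% and 4.94% of the T cell gate. Unthinned, Hp reached 68.9%, 81.8% and 42.6% of members. Ms4a4c, a membrane protein gene of classical monocytes, had one in 43.8%, 41.8% and 48.1% of thinned members against 11.8%, 6.57% and 12.7%, and in 56.9%, 73.4% and 70.4% of members unthinned. Mki67, a gene of cycling cells, had a UMI in 0%, 1.02% and 1.85% of thinned members (0%, 2.46% and 1.85% unthinned), 0, 5 and 1 cells in number, against 0.702%, 1.80% and 1.28% of the T cell gate. The upper bound of the 0 of 283 members was 1.30%, above the 0.702% of the T cell gate, so a lower share of members was not detectable at this depth. These shares count cells with a captured UMI and not cells that cycle.

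Markers of other lineages were summed over the members to show what else the gate held. T cell markers summed to 1551, 1180 and 1168 CPM in labelled heart TIL, liver PC and labelled liver TIL. In these libraries 275, 652 and 14 cells failed only the limit on Cd3d, Cd3e, Cd3g and Trac, beside 283, 488 and 54 members. The 1 UMI of these genes that the limit allows was held by 141, 226 and 21 members. The limit thus cut through cells with T cell transcripts, and the source of these UMIs was not tested. Non-classical monocyte markers summed to 548, 819 and 425 CPM, dendritic cell markers to 12.2, 9.31 and 35.4 CPM and Kupffer cell markers to 65, 132 and 0 CPM. Over the members of all libraries, blood among them, NK cell markers summed to 336 to 1579 CPM. Hepatocyte markers summed to 0 to 394 CPM and stromal markers to 0 to 443 CPM. The 54 members of labelled liver TIL stood apart by 39691 CPM of erythroid and 17190 CPM of B and plasma cell transcripts, against 166 and 2034 CPM in labelled heart TIL and 0 and 2990 CPM in liver PC. That library as a whole carried 51582 CPM of the erythroid list over its passing cells. The part of these transcripts in the other levels of its members was not tested.

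To see how the members differed from macrophages of the same tissue, their summed counts were compared with those of C1q-high macrophages, cells of the same 3 libraries that held 5 or more C1q UMIs, had no Chil3 limit and met the other criteria of the gate (393, 733 and 599 cells). Both classes came from a gate, so genes that move with Chil3 or C1q had to differ in part, and the 22 gate genes were left out. In this paired comparison over 3 libraries (edgeR quasi-likelihood test with the library as a block, two-sided, Benjamini-Hochberg adjustment over all genes tested, adjusted p below 0.05), 259 of 5015 genes were higher in members (5.16%) and 235 were lower (4.69%), or 9.85% in either direction. Without the library block, 14 were higher and 2 lower. Per the methods the infiltrate was isolated from the graft tissue samples, so liver PC and a liver TIL library share recipients. The 3 libraries, here and in the neutrophil comparison below, are thus not 3 independent replicates. Leaving out liver PC left 55 and 50, leaving out labelled heart TIL 98 and 86, and leaving out labelled liver TIL 317 and 240. The median log2 difference over all genes tested was −0.02.

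Genes of the classical monocyte were higher in members. Of 24 genes of monocyte identity 22 were tested, 17 were higher and 0 lower (median log2 difference 0.59; 19 higher at an unadjusted p below 0.05, 10 by DESeq2, 11 without labelled heart TIL, 12 without liver PC and 16 without labelled liver TIL). Lyz2 stood at 27859.5, 21161 and 23103 CPM in members of labelled heart TIL, liver PC and labelled liver TIL and at 15041, 10583 and 11302 CPM in the macrophages, with no overlap between the classes (log2 difference 0.96 ± 0.10 SE, adjusted p = 2.1e-15). Plac8, a small cysteine-rich protein of myeloid cells, stood at 5874, 6487 and 7789.5 CPM against 3012, 2786 and 2878 CPM (1.19 ± 0.11, adjusted p = 2.36e-20). Mmp8 stood at 365, 411 and 425 CPM in members and 39.3, 68.1 and 33.8 CPM in macrophages (2.89 ± 0.17, adjusted p = 3.4e-40), which placed the macrophages at the level of the T cell gate (48.2, 65 and 19.3 CPM). Fn1, the gene of fibronectin, stood at 114, 221 and 230.1 CPM against 19.6, 26.8 and 70.7 CPM (2.64 ± 0.22, adjusted p = 6.52e-24). Ifitm6, an interferon-induced transmembrane family member, stood at 447, 668 and 407 CPM against 105, 117 and 69.1 CPM (2.42 ± 0.15, adjusted p = 1.39e-38). Hp stood at 1648, 1782 and 655 CPM in members against 592, 393 and 156 CPM (1.91 ± 0.13, adjusted p = 2.76e-34). Within each library the members were higher, but the 655 CPM of members in labelled liver TIL lay close to the 592 CPM of macrophages in labelled heart TIL. Mmp8 and Hp, both counted in this list, are also markers named for these cells with earlier results of these data known. Their calls are thus no separate support for the identity of the cells.

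Of 13 tested genes of adhesion and migration 4 were higher in members and 2 lower. Only 1 was higher without labelled heart TIL, without liver PC or by DESeq2, and 0 were lower without liver PC and by DESeq2. Higher were among others Itgam, the CD11b integrin chain (114, 274 and 159 CPM against 76.4, 192 and 116 CPM, log2 difference 0.54 ± 0.17, adjusted p = 0.0161), Selplg, the ligand of P-selectin, and Itgb7. Itgax, the CD11c chain, was lower with a log2 difference of −1.40 ± 0.34. Itgax was above the macrophages in labelled liver TIL (35.4 against 33.8 CPM) and below them in the other libraries.

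All 6 S100 calcium-binding protein genes of the list were higher in members, and 4 without labelled heart TIL or without liver PC. S100a8, which forms calprotectin with S100a9, stood at 11833, 12204 and 4302 CPM in members and 2936, 2552 and 2771 CPM in macrophages (log2 difference 1.69 ± 0.12, adjusted p = 5.38e-29). S100a4 stood at 694, 1237 and 1416 CPM against 196, 299 and 349 CPM (1.98 ± 0.12, adjusted p = 1.86e-38), although the T cell gate held 619.7, 1099 and 790.0 CPM of it. Of 11 tested genes of neutrophils and their granules, 7 were higher and 0 lower, among them the siderophore-binding protein gene Lcn2 (495, 1308 and 142 CPM against 189.9, 274 and 59.5 CPM) and Wfdc21 (1478, 1661 and 372 CPM against 341, 276 and 67.5 CPM). Camp, which encodes cathelicidin, had a log2 difference of 3.39 ± 0.25, with 126 and 281 CPM in labelled heart TIL and liver PC and 0 UMIs in both classes of labelled liver TIL. Retnlg, a gene of mature neutrophils, had no call (389.7, 403 and 177 CPM against 297, 319 and 167 CPM, adjusted p = 0.0859), and neither did Stfa2l1, Hdc and Asprv1. The number of called genes of this list was 4 without liver PC and 5 by DESeq2.

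**Figure D2:**
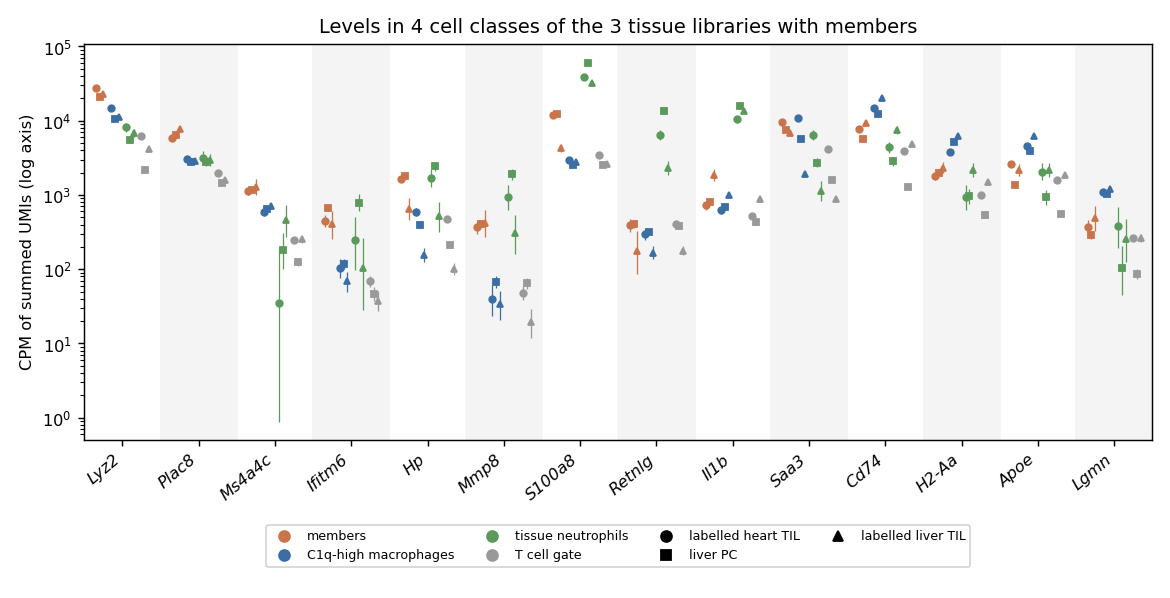
Summed CPM (log axis) of 14 named genes in members, C1q-high macrophages, tissue neutrophils and the T cell gate of labelled heart TIL (circles), liver PC (squares) and labelled liver TIL (triangles), with exact 95% Poisson intervals that cover counting error only. Members stood above the macrophages in each library for Lyz2, Plac8, Ms4a4c, Ifitm6, Hp and Mmp8, far below the neutrophils for S100a8, Retnlg and Il1b, and below the macrophages for Cd74, H2-Aa, Apoe and Lgmn.

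The macrophage programme was lower in members. Of 20 genes of macrophage differentiation 19 were tested, 0 were higher and 15 lower (median log2 difference −0.75; 10 lower without labelled heart TIL, 7 without liver PC and 16 without labelled liver TIL). Lgmn, a lysosomal endopeptidase gene, stood at 369, 289 and 496 CPM in members and 1098, 1044 and 1193 CPM in macrophages (−1.65 ± 0.13, adjusted p = 3e-26). Apoe, which carries lipid, stood at 2635, 1378 and 2195 CPM against 4497, 3886 and 6151 CPM (−1.24 ± 0.12, adjusted p = 6.05e-20), and the T cell gate held 1610.2, 560.4 and 1858 CPM. Ms4a7 and Cd81 were lower by 1.96 and 2.09 on the log2 scale in members. Cd68, Maf and Trem2 were among the 4 with no call. Of the 6 Kupffer cell genes 2 were tested and both were lower (2 to 5 genes lower when a library was left out). The scavenger receptor gene Marco stood at 28.4 and 73.2 CPM in members of labelled heart TIL and liver PC and 142 and 498 CPM in their macrophages, with 0 and 8.04 CPM in labelled liver TIL (−2.66 ± 0.21, adjusted p = 6.41e-27). Cd5l, a secreted scavenger protein gene, was at 28.4 and 37.2 CPM against 203 and 341 CPM, and at 0 in both classes of labelled liver TIL.

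MHC class II genes, which present antigen to CD4 T cells, were lower as well. All 6 tested were lower in members (5 of 6 when any library was left out, and 5 by DESeq2). H2-Aa, the alpha chain of I-A, stood at 1774, 1966 and 2337 CPM in members and 3801, 5135 and 6176 CPM in macrophages (−1.30 ± 0.11, adjusted p = 4.99e-22), and the T cell gate held 1011, 537 and 1489.7 CPM. Cd74 stood at 7847, 5625 and 9436 CPM against 14757, 12190.2 and 20022 CPM (−1.05 ± 0.11, adjusted p = 2.89e-17). The smallest difference of the list was that of H2-DMa, which helps load peptides (−0.35 ± 0.12, adjusted p = 0.0438).

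Chemokine genes were split. Of 14 tested, 3 were higher in members, Ccl3, Ccl9 and Cxcl2, with log2 differences of 0.46 ± 0.13, 0.59 ± 0.14 and 0.45 ± 0.12, and 7 were lower. Without labelled heart TIL, without liver PC and by DESeq2, 0 were higher and 4 lower. Ccl8, a ligand that attracts monocytes and T cells, stood at 56.8, 27.9 and 478 CPM in members and 271, 169.7 and 2891 CPM in macrophages (−2.54 ± 0.18, adjusted p = 1.48e-31). Ccl7 and Ccl12, both ligands of Ccr2, were each lower with −1.50 on the log2 scale, and Cxcl16 with −1.46 ± 0.16. Ccl2 had no call (150.2, 91.8 and 266 CPM against 183, 131 and 413 CPM, adjusted p = 0.0741). Cxcl9, which attracts T cells through Cxcr3, was called lower (−0.39 ± 0.12, adjusted p = 0.0203), yet its order turned between libraries, with 483 and 971 CPM against 784 and 1594 CPM in labelled heart TIL and liver PC and 1753 against 1268 CPM in labelled liver TIL. Ccl3 and Ccl9 turned as well, with 266 and 230.1 CPM in members and 289 and 233 CPM in macrophages of labelled liver TIL.

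Most interferon genes had no call. Of 19 tested genes of the type I interferon response 7 were higher and 0 lower (2 higher without labelled heart TIL, 1 without liver PC, 6 without labelled liver TIL and 1 by DESeq2). Among them were Ifi205, a nucleic acid sensor family member (357, 399 and 567 CPM against 218, 247 and 211 CPM, log2 difference 0.83 ± 0.14), Slfn5 and Slfn4 (0.70 ± 0.23 and 0.69 ± 0.23), while Ifit1, Mx1, Irf7 and 9 more had no call. Of 16 tested genes of the interferon gamma response, Gbp2 was higher (848, 1083 and 2337 CPM against 463, 646 and 1123 CPM, 0.87 ± 0.12, adjusted p = 8.43e-11), Cxcl9 lower and 14 not called. Gbp2b, of the same family of guanylate-binding proteins, was listed here among genes of strain differences and not in the interferon gamma list. Whether its UMIs came from donor or recipient cells cannot be told apart, and near-identical copies make its level uncertain. It was lower (60.9, 39.9 and 106 CPM against 168, 195 and 231 CPM, −1.90 ± 0.22).

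Inflammatory and coagulation genes were called in both directions. Of 12 inflammatory and acute phase genes tested, 5 were higher and 1 lower (3 higher without labelled liver TIL and 3 by DESeq2). Saa3, an acute phase protein gene of activated phagocytes, was called higher (log2 difference 0.64 ± 0.12), but members held 9503 against 10727 CPM in labelled heart TIL, where the order was turned, 7534 against 5628 CPM in liver PC and 6834 against 1890.1 CPM in labelled liver TIL. Il1b was higher (723, 813 and 1859 CPM against 620.0, 681 and 993 CPM, 0.42 ± 0.12, adjusted p = 0.00678) and Slpi, an inhibitor of serine proteases, too (1.76 ± 0.14), while Il1a was lower (−1.86 ± 0.36), although it stood at 17.7 against 14.5 CPM in labelled liver TIL. F10, the gene of coagulation factor X, stood at 248, 418 and 142 CPM against 131, 173 and 61.1 CPM (1.20 ± 0.15, adjusted p = 1.8e-11), and Plaur, the urokinase receptor, was higher by 0.94 ± 0.23. Procr, the endothelial protein C receptor gene, was the 1 gene lower among 4 tested coagulation and fibrinolysis genes (−1.58 ± 0.31), although it stood at 70.8 against 43.4 CPM in labelled liver TIL. The lower counts of the inflammatory and the coagulation list were both 0 without liver PC and by DESeq2, and the higher count of the latter was 1 without liver PC or without labelled heart TIL and 3 without labelled liver TIL. Of 10 tested early response genes 8 were higher (4 without labelled heart TIL or without liver PC), with Jun at 325, 168 and 336 CPM against 91.7, 72.4 and 159 CPM and the heat shock protein gene Hspa1a at 434, 391 and 283 CPM against 146, 104 and 182 CPM. Of 13 tested cell cycle genes 5 were lower in members, but 1 without labelled heart TIL, without liver PC or by DESeq2, among them the helicase subunit gene Mcm5 (16.2, 33.3 and 0 CPM against 61.1, 71.8 and 35.4 CPM). Glycolysis genes had 1 call among 14, Mif, lower by 0.64 ± 0.12. When a library was left out 0 to 1 were lower and 0 to 1 higher, and 1 was lower by DESeq2. Of 12 tested transcription factors of myeloid fate Klf2 and Nr4a1 were higher, the latter turned in labelled liver TIL at 35.4 against 62.7 CPM, and Nr1h3, the liver X receptor alpha, was lower (69, 99.8 and 17.7 CPM against 227, 292 and 46.6 CPM), while Spi1, Irf8 and Cebpb had no call. Without liver PC 0 of these factors were higher, and 0 by DESeq2. No tested gene of the T cell, NK cell, erythroid or hepatocyte lists was called (0 of 6, 3, 3 and 4 by edgeR, with 0 at an unadjusted p below 0.05 and 0 by DESeq2), and of 4 B and plasma cell genes 1 passed the unadjusted threshold and 0 DESeq2.

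Outside the lists, the highest log2 differences among genes with the same direction in every library were those of Serpinb10, a serpin of myeloid cells (4.13 ± 0.53, with 20.3, 63.8 and 35.4 CPM in members against 4.37, 3.04 and 0 CPM), the transcript I830127L07Rik (3.23 ± 0.16, with 353, 771 and 319 CPM against 34.9, 82.1 and 40.2 CPM) and Pi16 (2.82 ± 0.52). Serpinb10 could pass the filter on low counts only through members, so its direction was fixed before the test and its rank carries little weight. I830127L07Rik was also far above the T cell gate, at 31.1, 40.2 and 20.3 CPM. The lowest were those of Clec4b1, a C-type lectin gene (−3.20 ± 0.59), Akr1e1 (−2.83 ± 0.73), Slc40a1, the iron exporter ferroportin (−2.80 ± 0.32), the receptor gene Cd72 (−2.73 ± 0.26) and Vcam1 (−2.44 ± 0.27). Vcam1 stood at 44.7, 19.95 and 35.4 CPM in members and 133, 168 and 57.9 CPM in macrophages.

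**Figure D3:**
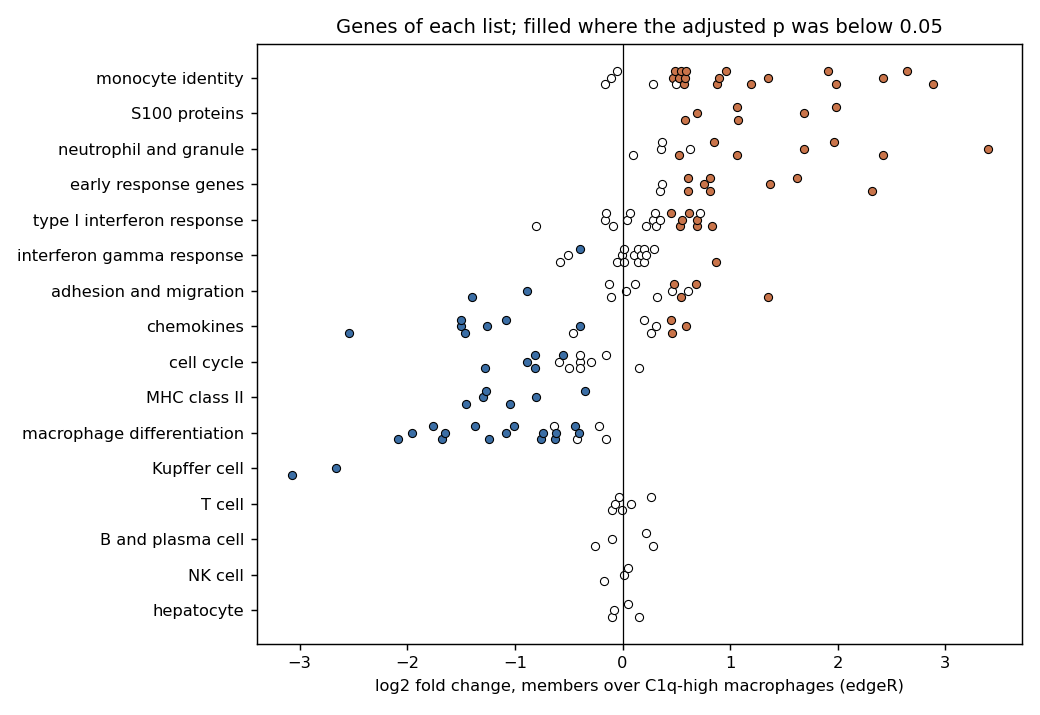
Log2 fold change (edgeR, members over C1q-high macrophages of the same 3 libraries) of each tested gene in 16 lists, filled where the adjusted p was below 0.05 (orange higher, blue lower). The monocyte identity, S100 and early response lists lay to the right with 17, 6 and 8 genes called higher, the macrophage differentiation and MHC class II lists to the left with 15 and 6 called lower, and the T cell, B cell, NK cell and hepatocyte lists had no call.

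Compared with neutrophils of the same tissue libraries (41, 72 and 52 cells with 3 or more UMIs of the 4 neutrophil genes and fewer than 2 of the 4 monocyte genes), members were lower in granule genes and higher in 8 monocyte genes. Both classes were again gated, and the neutrophils are few. In the same test with 1037 genes, 98 were higher in members (9.45%) and 170 lower (16.4%), or 25.8% in either direction. Leaving out liver PC left 5 higher and 63 lower, leaving out labelled heart TIL 73 and 181, and leaving out labelled liver TIL 96 and 294. The 11 tested genes of neutrophils and granules were all lower (9 to 12 when a library was left out). S100a8 stood at 39208, 60071 and 32374 CPM in neutrophils, above the 4302 to 12204 CPM of members in each library (−2.58 ± 0.20, adjusted p = 1.42e-05). Retnlg stood at 6401, 13592 and 2319.8 CPM in neutrophils (−4.77 ± 0.26, adjusted p = 1.46e-06), and in members at the level of the T cell gate (403, 383 and 178 CPM). The chemokine gene Cxcl2 stood at 9164, 10397 and 17476 CPM in neutrophils and 402, 366 and 1558 CPM in members (−4.59 ± 0.24), and Il1b at 10458, 15931 and 13661 CPM against 723, 813 and 1859 CPM (adjusted p = 2.85e-06). G0s2, an inhibitor of lipolysis, Hdc, which makes histamine, and the stefin gene Stfa2l1 had log2 differences of −5.04 ± 0.19, −5.22 ± 0.30 and −5.35 ± 0.24.

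Of 21 tested monocyte identity genes 8 were higher in members than in neutrophils and 5 lower, and without liver PC 3 and 2. Ms4a6c stood at 1583, 1615 and 1239 CPM against 245, 210.3 and 361 CPM (2.23 ± 0.25, adjusted p = 0.000143), Ms4a4c at 1137, 1181 and 1292 CPM against 35, 184 and 464 CPM (2.15 ± 0.37) and Lyz2 at the values above against 8114, 5573 and 6856 CPM (1.54 ± 0.11, adjusted p = 6.6e-06). Cd14, Clec4e, Mmp8 and Msrb1 were among those lower in members. Mmp8 was 944 and 1906 CPM in neutrophils of labelled heart TIL and liver PC but 309 CPM in labelled liver TIL, where members held 425 CPM, and its call was lower with −1.77 ± 0.38 (adjusted p = 0.00773). Hp had no call (1714, 2445 and 516 CPM in neutrophils, −0.44 ± 0.18, adjusted p = 0.0985). Saa3 was higher in members (6471, 2734 and 1134 CPM in neutrophils, 1.16 ± 0.29, adjusted p = 0.0147) and 6 of the 8 tested inflammatory genes were lower. Of 6 early response genes lower in members, Zfp36 had −2.69 ± 0.16 and Junb −2.69 ± 0.17. Of 13 type I interferon genes 7 were lower (2 of 10 without liver PC), with Isg15 at 471, 525 and 637 CPM against 1154, 1341 and 1547 CPM, and 1, Ifi205, was higher. The lysosomal enzyme gene Hexa (2.46 ± 0.61), Mcub (2.46 ± 0.52), Ybx1 (2.63 ± 0.48) and Naaa (1.99 ± 0.29) were among the other genes higher in members. Of lymphocyte genes, 3 of 4 T cell genes, both NK cell genes tested and Igkc were lower in members. Without liver PC none of these was called (0 of 3, 1 and 3 genes tested), no library left out kept Igkc or all 3 T cell genes, and DESeq2 called 2, 0 and 1. The part of lymphocyte RNA in the differences was not tested.

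Members of the infiltrate were then set against cells of the same gate in blood. Libraries of different organs stood in as replicates of a compartment, and kidney entered on the blood side only. Per the methods blood and graft samples came from the same recipients, but the libraries were treated as independent. Organ and compartment were thus partly mixed. Only labelled heart TIL and labelled liver TIL (337 members) and the 3 blood libraries (1469 cells) entered this comparison, without a block, and 29 of 3512 genes were higher in tissue (0.826%) and 3 lower (0.0854%), or 0.911% in either direction. The result depended on single libraries: 2 genes were higher and 0 lower without liver PBMC, and 57 higher and 39 lower without kidney PBMC and its 21 cells. Without heart PBMC 12 were higher and 2 lower, without labelled heart TIL 16 and 0, and without labelled liver TIL 33 and 0. With the organ as a block, 126 genes were higher and 200 lower, which turned the balance towards lower. This block pairs tissue with blood by the labels, which the organ markers of both infiltrate libraries go against, so it cannot be told whether it pairs libraries of the same recipients. Blood members carried 38362 to 153557 CPM of neutrophil and granule transcripts, tissue members 7400 to 20774 CPM, and the part of this difference in the result was not tested. A C1q UMI, allowed by the gate up to its limit, was held by 71.0% of members in labelled heart TIL and 77.8% in labelled liver TIL. In blood of heart, liver and kidney recipients it was held by 3.14%, 4.88% and 4.76% of members. The part of this imbalance was not tested either.

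Chemokine transcripts made up 8 of the 29 genes, from 13 chemokine genes tested (1 without liver PBMC, 5 without heart PBMC, 6 to 8 without any other library, and 4 by DESeq2), with Ccl2, Ccl3, Ccl4, Ccl7, Ccl8, Ccl12, Cxcl9 and Cxcl16 higher in tissue and 0 lower. Cxcl9 stood at 483 and 1753 CPM in labelled heart TIL and labelled liver TIL, and at 8.21, 56.1 and 142 CPM in blood of heart, liver and kidney recipients (log2 difference 4.56 ± 0.75, adjusted p = 0.0183). The sums over infiltrate and blood members had a ratio of 15.8 (exact interval of counts 12.0 to 21.1). Ccl2 stood at 150.2 and 266 CPM against 21.9, 20.8 and 94.4 CPM (2.82 ± 0.52, adjusted p = 0.0267). Cxcl16, a ligand of Cxcr6 on T cells, stood at 142 and 354 CPM against 0, 11.8 and 0 CPM (4.59 ± 0.73, adjusted p = 0.0153), and Ccl12 at 114 and 212 CPM against 8.21, 3.62 and 0 CPM (4.65 ± 0.64, adjusted p = 0.0073). Ccl7 had 25 UMIs in infiltrate members and 0 in blood members, 41.1-fold higher with the blood group set to a floor of 3 counts. This fold leaves out the counting error of the tissue sum and is no interval. Ccl7, and likewise Cxcl16, Ccl12, Ccl8 and Ccl3 with few UMIs in blood, could pass the filter on low counts only through tissue. Their direction was thus fixed before the test. Ccl2 met the level of the filter in blood of kidney recipients only. The 8 calls among 13 tested genes were therefore not all free to go either way. Ccl8 had 41 UMIs against 1, a ratio of 202 with an interval of 34.3 to 8172. Liver PC members, which were not in the test, held 971 CPM of Cxcl9, 91.8 of Ccl2, 106 of Cxcl16, 33.3 of Ccl12 and 17.3 of Ccl7. In each of these 5 genes members stood above the T cell gate in all 3 tissue libraries, with counting intervals apart in 3 libraries for Cxcl9 and Ccl2, in 2 for Cxcl16 and Ccl12 and in 0 for Ccl7, whose difference was not detectable at this depth. Ccl3 (597, 455 and 266 CPM) and Ccl4 (1064, 483 and 779 CPM) stood below the T cell gate in all 3, at 891, 1224 and 842 CPM and at 1971, 1622 and 2133 CPM. Ccl8 stood below it in both infiltrate libraries.

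**Figure D4:**
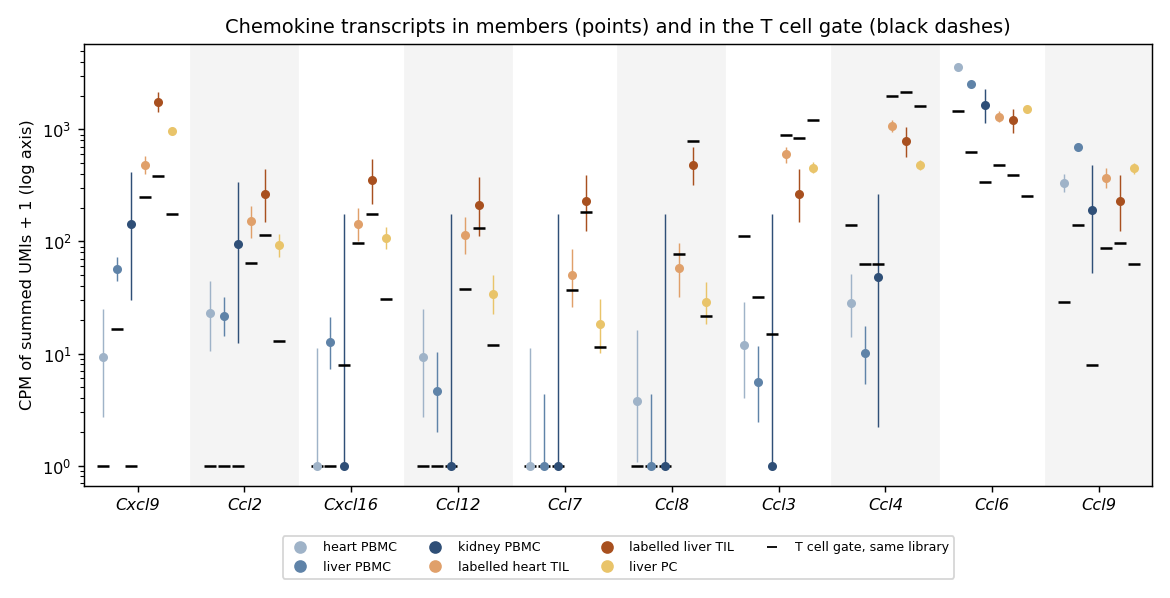
CPM plus 1 (log axis) of 10 chemokine genes in the members of 6 libraries (points with exact 95% Poisson intervals, from left to right heart, liver and kidney PBMC, labelled heart TIL, labelled liver TIL and liver PC) and in the T cell gate of the same library (black dashes). Cxcl9, Ccl2, Cxcl16, Ccl12 and Ccl7 lay above the dash in the 3 tissue libraries, for Ccl7 within the intervals, Ccl3 and Ccl4 below it, Ccl6 was higher in each blood library than in tissue, and Ccl9 overlapped.

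Among the other genes higher in tissue were Hmox1, the haem oxygenase gene (633 and 1576 CPM against 134, 151 and 142 CPM, log2 difference 2.76 ± 0.44, adjusted p = 0.0153), Lgmn (369 and 496 CPM against 54.8, 94 and 47.2 CPM, 2.34 ± 0.39, adjusted p = 0.0205), Hspa1a (434 and 283 CPM against 0, 10.9 and 0 CPM, 5.43 ± 0.62, adjusted p = 0.00171), Jun (325 and 336 CPM against 21.9, 55.2 and 0 CPM) and Gbp2b (60.9 and 106 CPM against 0, 1.81 and 0 CPM). Saa1, Gm15056, Fabp4, Gpihbp1 and Ubd had 36, 31, 17, 18 and 16 UMIs in infiltrate members and 0 in all blood members. At the same floor, and again without the counting error of the tissue sums, this gives 59.1-fold, 50.9-fold, 27.9-fold, 29.6-fold and 26.3-fold higher sums. These genes, like Ccl7, could pass the filter on low counts only through tissue, so their direction was fixed before the test. The same held for Hspa1a, Gbp2b, Rgs1 and Xcl1 among others, and Jun met the level of the filter in blood of liver recipients only. The floor is that of the summed blood libraries, and in kidney PBMC alone 3 UMIs would be 142 CPM. Saa1 stood at 129.9 CPM in members and 133 CPM in the T cell gate of labelled heart TIL. Of the 29 genes, 19 were above the T cell gate in both infiltrate libraries, 6 were at or below it in both (Bcl2a1d, Ccl3, Ccl4, Ccl8, Rgs1 and Xcl1) and 6 were above the C1q-high macrophages in both. For 28 of them, all but Saa1, the T cell gate of both infiltrate libraries also exceeded that of every blood library, so the T cells of the tissue moved in the same direction, and the part of free RNA in these differences was not tested.

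Lower in tissue were S100a9 (2131 and 1770.3 CPM against 39225, 21255 and 14439 CPM, −3.85 ± 0.58, adjusted p = 0.0121), the class I gene H2-Q10 (16.2 and 17.7 CPM against 318, 199 and 47.2 CPM, −3.96 ± 0.76) and the transcript RP23-325K4.10 (−2.61 ± 0.51). H2-Q10 could pass the filter on low counts only through blood, so its direction was fixed before the test. S100a8 and Retnlg lay lower in both infiltrate libraries than in each blood library but had no call (adjusted p = 0.125 and 0.0528). Of 23 tested monocyte identity genes none was called (0 by edgeR and 0 by DESeq2, with 1 higher and 6 lower at an unadjusted p below 0.05). Lyz2 stood at 27859.5 and 23103 CPM in tissue and 21440.3, 32753 and 29302 CPM in blood, which overlap. MHC class II had 0 of 6 called, with 5 higher at an unadjusted p below 0.05 and 1 by DESeq2, and H2-Ab1 stood at 3998 and 4992 CPM against 457, 1340.1 and 1509.9 CPM (2.03 ± 0.43, adjusted p = 0.0528). At 2 tissue libraries against 3, a missed call of this kind does not show that levels were alike.

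Members also varied between the tissue libraries, which is a description of single libraries. A gene counted as measured with at least 10 UMIs in the members of either library of a pair. Members held 56486 UMIs in labelled liver TIL, 246343 in labelled heart TIL and 751798 in liver PC. Genes could thus enter through the deeper library alone, which favours that direction, so the 2 directions cannot be weighed against each other. Among 3135 genes measured in labelled heart TIL and labelled liver TIL, 214 (6.83%) were at least 2-fold higher in the latter and 661 (21.1%) in the former. Of 12 interferon gamma response genes measured, 10 were at least 2-fold higher in members labelled liver TIL and 0 in members labelled heart TIL. Against liver PC, where 8.9% of 6054 genes were 2-fold higher in labelled liver TIL and 29.4% in liver PC, 11 of 16 were higher and 0 lower. Gbp2 stood at 2337 CPM in labelled liver TIL, 848 CPM in labelled heart TIL and 1083 CPM in liver PC, and Iigp1, an immunity-related GTPase gene, at 690.4, 272 and 282 CPM. The macrophages and the T cell gate of labelled liver TIL were also higher than those of labelled heart TIL and liver PC in both genes, with Gbp2 at 1123 and 495 CPM against 463 and 237 CPM in labelled heart TIL. Neutrophil and granule genes ran the other way, the direction that the filter favours. Of these, 7 of 11 were at least 2-fold higher in labelled heart TIL than in labelled liver TIL and 0 lower, and 9 of 15 higher in liver PC with 2 lower. Between liver PC and labelled heart TIL, 14.2% of 6067 genes were 2-fold higher in the former and 3.07% in the latter, and 2 of 23 monocyte identity genes (Vcan and Itgam) were higher in liver PC and 0 in labelled heart TIL.

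How other genes varied with Chil3 among members is given as a description, since Chil3 was a gate gene cut at its lower end. After thinning to 500 UMIs, Spearman's rho of Chil3 with Lyz2 was 0.47 over 283 members of labelled heart TIL, 0.41 over 488 of liver PC and 0.21 over 54 of labelled liver TIL. With the summed monocyte identity genes it was 0.50, 0.48 and 0.17, with the summed MHC class II genes −0.48, −0.48 and −0.15, and with S100a8 0.32, 0.36 and −0.08. With the summed neutrophil and granule genes it was 0.29, 0.35 and 0.004 in tissue. In members of heart PBMC and liver PBMC it was −0.52 and −0.33 with these genes. The values for the 54 cells of labelled liver TIL are weak, and the part of any free RNA shared by the cells of a library was not tested.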

How the data were processed

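Microwell-seq libraries of graft tissue (5) and recipient blood (3) were analysed, 1 library per condition. The authors deposited raw UMI counts per gene and barcode. The submitters' processing notes name bcl2fastq. Per the methods the authors aligned to GRCm38 with STAR inside Drop-seq tools, removed reads that aligned to several places and merged UMIs within 1 edit distance, and filtered cells on total UMIs (minimum 500) and mitochondrial share (maximum 10%). Total depth was 3418722 to 19171264 UMIs per library, and exact intervals (95%) cover counting error only.

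Here the same cell filter was applied to the deposited counts, classes were gated as described above, and UMIs were summed per class and library with at least 10 cells. No doublet caller was run. Sums were given as CPM, and shares of cells with a UMI after thinning each cell to 500 UMIs (seed 0). Sums were tested with edgeR 4.0.16 (filterByExpr, TMM, quasi-likelihood, two-sided, Benjamini-Hochberg over all genes tested, threshold 0.05) in R 4.3.3, with the library as a block for classes within tissue and no block for infiltrate against blood. Per the methods each organ had its own recipients (2), not stated to be pooled or kept apart. The fits had 2 or 3 residual degrees of freedom, and edgeR moderated each gene's spread between libraries with that of all genes. SE were derived from the test statistic. P-values and SE thus do not measure the spread of a single gene between libraries on its own. The scripts were tested on simulated counts. Alternatives were DESeq2 (pydeseq2 0.5.4), other size factors, filters, gates and blocks, and leaving out each library.

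Members and gene lists (33) were chosen with earlier results of these data known. Named genes were the gate genes and markers, members of the lists, and up to 10 genes per direction of largest log2 difference with the same direction in every library. Within the lists, genes beyond those of largest difference, and Saa3, Il1b, Apoe, Lcn2, F10, Gbp2b, Ccl3 and Retnlg among others, were named after their values were seen. Promoter windows are from RefSeq (GRCm38.p6).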

Additional observations from a re-analysis of the deposited data

Results flagged for a closer look

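The direction between members and C1q-high macrophages differed between libraries beyond the counting intervals of the ratios in Cxcl9, Hmox1 and Saa3. Ccl3, Ccl9, Itgax, Il1a, Nr4a1 and Procr turned in labelled liver TIL as well, within those intervals. The differences between libraries were not tested. The log2 ratio of summed CPM for Cxcl9 was 0.47 in labelled liver TIL, −0.70 in labelled heart TIL and −0.71 in liver PC. For Hmox1 it was 0.46 in labelled liver TIL, −0.51 in labelled heart TIL and −1.07 in liver PC. For Saa3 it was 0.42 in liver PC, 1.85 in labelled liver TIL and −0.17 in labelled heart TIL.

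Barcodes under 500 UMIs also met the rest of the gate. They entered no class and no test, only the levels given over all barcodes. There were 31 in heart PBMC, 10 in labelled heart TIL, 103 in liver PBMC, 3 in labelled liver TIL, 2 in kidney PBMC and 2 in kidney TIL, where 2 cells were members.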

How the results depend on the processing

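The number of members and their shares moved with the gate, and the cause was not tested beyond the change of limit itself. Of 827 members, 502 were left at a floor of 1000 UMIs, 529 with at least 10 Chil3 UMIs and 496 with fewer than 2 C1q UMIs. At the floor of 1000 the shares were 7.44% in heart PBMC, 37.3% in liver PBMC, 0.997% in labelled liver TIL, 2.80% in kidney PBMC and 0% in kidney TIL. With at least 3 Chil3 UMIs they were 8.29% in heart PBMC, 4.22% in labelled heart TIL, 6.08% in liver PC, 24.8% in liver PBMC, 1.19% in labelled liver TIL and 2.97% in kidney PBMC. With at least 10 they were 2.23%, 1.68%, 3.5%, 7.56%, 0.182% and 0.612% in the same order, and 0% in kidney TIL. With the gate after thinning they were 4.37% in heart PBMC, 2.23% in labelled heart TIL, 9.01% in liver PBMC, 0.236% in labelled liver TIL, 1.05% in kidney PBMC and 0% in kidney TIL. With fewer than 2 C1q UMIs they were 1.56% in labelled heart TIL, 3.11% in liver PC and 0.353% in labelled liver TIL. As a mean of per-cell CPM, Chil3 was 16132 in labelled heart TIL, 15176 in liver PC and 9004 in labelled liver TIL and Ly6c2 was 4747 in liver PC, and Chil3 was 15167 CPM in liver PC without the 5% of members with most UMIs.

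Against C1q-high macrophages, 69 genes were higher and 53 lower by DESeq2, all of them among the 259 and 235, 14 and 2 without the library block, and 136 higher without a filter on low counts. Leaving out each library gave 55 to 317 higher and 50 to 240 lower. Against neutrophils, 36 were higher by DESeq2, 32 higher and 112 lower without the block, and 284 higher without the filter, where Hp turned to 0.017 on the log2 scale. Leaving out each library gave 5 to 96 higher and 63 to 294 lower, and the floor of 1000 UMIs could not be fitted because 1 library was left.

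Infiltrate against blood moved as well. With at least 50 cells per library 57 genes were higher and 39 lower, with at least 10 Chil3 UMIs 5 lower, by DESeq2 19 higher and 5 lower, and without the filter 147 and 56. With the organ as a block 126 were higher and 200 lower, with liver PC added 73 and 72, without shared barcodes 6 lower and without the top 5% of cells 7 lower. Leaving out each library gave 2 to 57 higher and 0 to 39 lower. The log2 difference of Fn1, not called, ran from −0.79 to 0.25 when a library was left out and turned to 0.10 without labelled heart TIL and 0.25 without liver PBMC. That of Lyz2, not called either, ran from −0.37 to 0.030 and turned without labelled liver TIL. Among the named genes and all alternatives, 2069 values kept their direction and side of the threshold, 335 lost the call, 28 gained one and 4 reversed. No paired analysis was possible by replicate number because each condition has 1 library, so pairing was by library or organ only, as given above.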
